A study of Mus musculus with 8 samples.

Results

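Pou5f1 (which encodes OCT4), Sox2 and Nanog are the transcription factor genes at the core of the pluripotency network, and their transcription was followed in mouse induced pluripotent stem cells (iPSCs) leaving mitosis. They were selected by gene symbol, a rule that uses no measured value, and are 3 of 14861 genes in the deposited table. All 3 passed the minimum mean signal of 0.5 that was applied to the table. The assay was PRO-seq, a nuclear run-on in which polymerases already engaged on DNA add labelled nucleotides to their transcripts, so that the signal over a gene reads ongoing transcription. The cells were a clonal iPSC line with the FUCCI2 cell-cycle reporter, grown on irradiated feeder cells in medium with serum, LIF and inhibitors of MEK and GSK3, which all groups share. Mitotic cells (0 h) were held with the microtubule poison nocodazole (200 ng/ml, 6 h) and shaken off, early G1 and late G1 cells were released from that arrest for 1 h and 3 h, and asynchronous cells received no nocodazole. The table's G1 column names were matched to the releases by meaning. Each group has 2 libraries, but the table holds a single combined value for each gene in each group, so no difference below has a replicate check, an error or a p-value, and depth is unknown. A single clone was used, and whether it still carries reprogramming copies of Pou5f1, Sox2, Klf4 or Myc is not known here.

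OCT4 is a POU-domain factor and SOX2 an HMG-box factor, and the pair bind side by side on a composite DNA element in many enhancers and promoters of embryonic stem cells. NANOG is a homeodomain factor that binds many of the same regions and stabilises the undifferentiated state. Each of the 3 genes is itself controlled by the trio, and in the mouse embryo OCT4 holds back trophectoderm fate, while NANOG holds back primitive endoderm.

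The start-proximal sequences are shown because one of the trio holds the letters of that composite element just before its own start. Each is the 250 bases before a RefSeq start site on GRCm38.p6, 5′ to 3′ on the plus strand, in lower case with motif matches in capitals. The motifs searched, each on both strands, were the octamer core with the letters TTTGCAT and the SOX core with the letters ACAATG. Their composite is both in that order with 1 base of any kind between them. General promoter motifs were the GC box, spelled GGGCGG, and the nuclear receptor site, spelled AGGTCA. The CCAAT box was searched by its own letters, and the TATA box was spelled TATAAA. The Nanog window is chr6:122707315-122707564, the Pou5f1 window chr17:35505782-35506031 and the Sox2 window chr3:34649745-34649994.
Nanog: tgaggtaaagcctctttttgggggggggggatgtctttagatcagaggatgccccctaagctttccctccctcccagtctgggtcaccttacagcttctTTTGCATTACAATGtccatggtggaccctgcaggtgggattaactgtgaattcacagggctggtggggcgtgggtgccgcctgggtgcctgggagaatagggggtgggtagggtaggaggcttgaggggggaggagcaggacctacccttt
Pou5f1: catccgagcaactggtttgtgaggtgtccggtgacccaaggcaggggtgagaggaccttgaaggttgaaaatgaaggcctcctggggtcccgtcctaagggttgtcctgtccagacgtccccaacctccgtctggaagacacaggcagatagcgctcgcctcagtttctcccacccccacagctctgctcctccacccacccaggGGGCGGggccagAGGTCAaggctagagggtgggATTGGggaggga
Sox2: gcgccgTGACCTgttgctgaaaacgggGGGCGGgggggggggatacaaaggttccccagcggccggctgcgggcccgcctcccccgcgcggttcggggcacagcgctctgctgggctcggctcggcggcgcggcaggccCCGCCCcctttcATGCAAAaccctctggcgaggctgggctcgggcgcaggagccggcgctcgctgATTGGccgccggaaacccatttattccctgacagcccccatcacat

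In Nanog the capitals are the composite, from 151 to 138 bases before the start, which contains both the octamer and the SOX core. The composite's letters were written to match the Nanog element known from the literature, so its match there is no finding. These letters were in 2 of 32851 promoter windows of that length (0.00609%), both of them windows of Nanog. A shorter form that ends at ACAA was in 11 windows of 9 genes, of which 5 are in the table. The Sox2 window holds an octamer core on the minus strand (ATGCAAA, 99 to 93 bases before the start), which 4.12% of windows hold in either orientation. It also holds a pair of GC boxes (32.7% of windows hold at least 1), a nuclear receptor site (14.0%) and a CCAAT box (33.8%). Pou5f1 has a GC box 45 to 40 bases and a nuclear receptor site 33 to 28 bases before the start. Its CCAAT box lies 12 to 8 bases before it. None of the 3 windows holds the TATA letters (12.4% of windows). A match is a description of these letters and not evidence of binding, and no match says only that the letters are not in this window.

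In the table, all 3 genes lie on the plus strand of GRCm38. Pou5f1 starts at position 35506018 of chromosome 17, Sox2 at 34650405 of chromosome 3 and Nanog at 122707568 of chromosome 6. The RefSeq starts nearest to these are 14, 410 and 3 bases away, so the Sox2 window above lies upstream of the start used in the table. The Pou5f1 window runs past the start used in the table, and its CCAAT box lies downstream of that start. RefSeq spans are 4746 bp for Pou5f1, 2467 bp for Sox2 and 7145 bp for Nanog. No other RefSeq gene overlaps Pou5f1 or Nanog, whereas Sox2 lies within the long non-coding RNA gene Sox2ot (117613 bp), which has no row of its own in the table, so signal of that transcript over Sox2 cannot be told apart from Sox2. RefSeq names 7 pseudogenes for Pou5f1 and 2 for Nanog, none of them in the table, and how reads shared with such copies were counted is not known here. It is not known whether values were divided by gene length, so levels are compared between columns and not between genes.

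The cells' label was checked against naive pluripotency markers. Of 16 such markers, 15 are in the table, none at 0 in any column and all 15 with a mean no lower than that of the median gene. Their summed signal, which includes the 3 genes described here, was 76.1 in mitotic cells, 1829 in early G1, 1807 in late G1, with 1778 in asynchronous cells. Of 25 fibroblast feeder markers, 13 are in the table, with sums of 6.84, 185, 165 and 113 in the same order. Twist1 and S100a4 were at 0 in mitosis, and the collagen gene Col1a1 was at 0.0865, 1.97, 9.37 and 5.44. Fn1 and Tagln, the strongest of the list, make up most of these sums. The share of feeder cells in each group and its part in the results was not tested. In such bulk samples fewer transcribing cells and less transcription per cell cannot be told apart.

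Pou5f1 had a signal of 3.90 in mitotic cells, 113 in early G1, 80.0 in late G1, with 139 in asynchronous cells. Its highest value was therefore that of cycling cells, and neither G1 column reached it. Sox2 had 13.6 in mitotic cells, 299 in early G1, 317 in late G1, with 226 in asynchronous cells. Both of its G1 values lay above the asynchronous one. Nanog had 6.14 in mitotic cells, 148 in early G1, 119 in late G1, with 136 in asynchronous cells, and its G1 values lay on either side of the asynchronous one. The 3 genes thus shared the low in mitosis and the return by 1 h, and differed in which of the other columns was highest, a difference with no replicate spread to set it against.

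**Figure D1:**
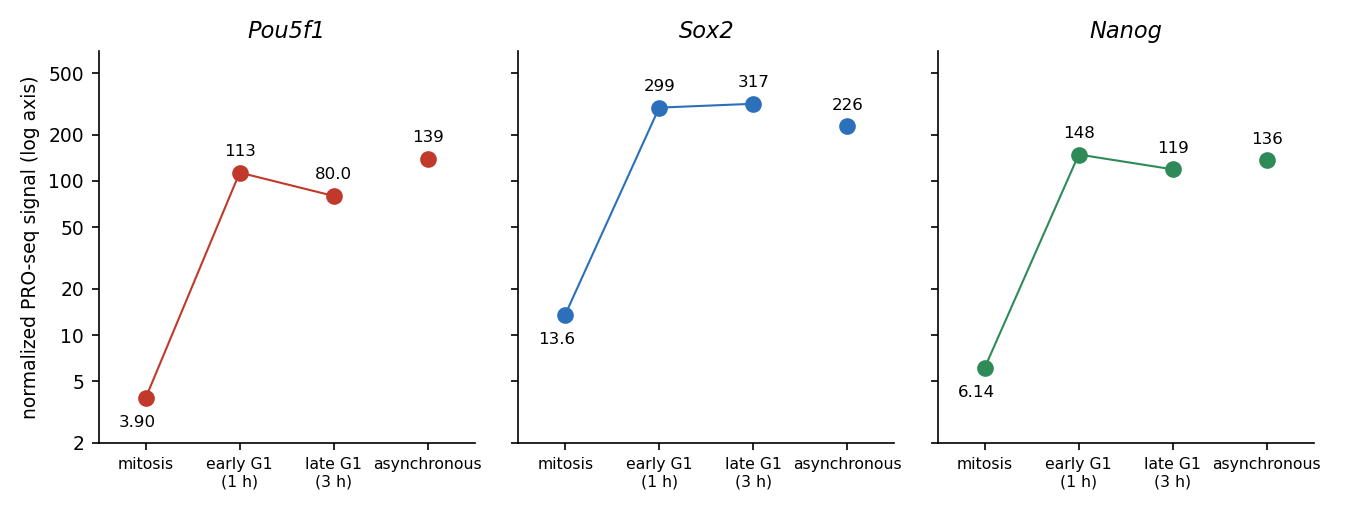
Normalized PRO-seq signal (log axis) of Pou5f1, Sox2 and Nanog in mitosis, early G1, late G1 and asynchronous cells, 1 combined value per group; lines join the 3 times after arrest. Pou5f1 is highest in asynchronous cells (139), Sox2 in late G1 (317) and Nanog in early G1 (148).

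The first comparison asked how much of their transcription remained in mitosis. All 3 genes were at least 2-fold lower in mitotic than in asynchronous cells, as were 99.1% of the 14444 genes tested (0.0208% were at least 2-fold higher), so the count says nothing particular about them. Pou5f1 kept 2.81% of its asynchronous signal, Nanog 4.50% and Sox2 6.01%, against 5.36% for the median gene. The log2 ratios of signal + 0.1 were -5.12, -4.45 and -4.05. Of all genes tested, 9.26% kept a smaller share than Pou5f1, 33.6% a smaller share than Nanog and 61.0% a smaller share than Sox2. These ranks carry no pseudocount. With 0.1 added, 3.6001% of genes had a lower log2 ratio than Pou5f1, 18.4% a lower one than Nanog and 40.2% a lower one than Sox2, beside a median of -3.89, so Sox2 lay on either side of the median gene depending on the measure. Pou5f1 was near the low end of the table by both.

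These sizes rest on the authors' scaling, in which the mitotic column total is 5.45% of the asynchronous one. With the columns scaled to equal medians the general fall is removed by construction, and the log2 ratios of mitosis over asynchronous cells became -0.88 for Pou5f1, -0.20 for Nanog and 0.21 for Sox2. None of these was 2-fold, and Sox2 changed sign. As a share of all signal in a column, which no such scaling changes, Pou5f1 made up 0.0232% in mitosis and 0.0449% in asynchronous cells. Nanog made up 0.0364% in mitosis and 0.0441% in asynchronous cells, and Sox2 0.0805% in mitosis and 0.0730% in asynchronous cells.

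The next comparison covered the first hour of release. In early G1 all 3 exceeded their mitotic signal at least 2-fold, as did 99.3% of 14456 genes, while 0.00692% were at least 2-fold lower. Pou5f1 was 29.0-fold higher, Nanog 24.2-fold and Sox2 22.05-fold. The order is the reverse of that of the share kept in mitosis, and both use the mitotic column. Against asynchronous cells, none of the 3 was 2-fold apart in early G1, where 17.7% of 14661 genes passed 2-fold upward and 9.53% downward. Sox2 stood at 133% of its asynchronous signal, Nanog at 109% and Pou5f1 at 81.7%, against 124% for the median gene. The Nanog value lay above the asynchronous one only on the authors' scaling: its log2 ratio of 0.12 became -0.20 with equal medians, -0.10 with equal totals and -0.0045 with quantile normalization.

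Between the 1 h and the 3 h release the genes parted. None of them was 2-fold apart, while 15.1% of 14699 genes were 2-fold or more higher in late than in early G1 and 7.52% lower. Pou5f1 in late G1 had 70.5% of its early G1 signal and Nanog 80.1%, whereas Sox2 had 106%. The log2 ratios were -0.50, -0.32 and 0.08, beside -0.08 for the median gene. Of all genes, 27.9% had a lower ratio than Pou5f1, 37.9% a lower one than Nanog and 57.7% a lower one than Sox2, so all 3 lay in the broad middle of the table.

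In late G1 the spread against asynchronous cells was widest. Sox2 stood at 140% of its asynchronous signal, Nanog at 87.2% and Pou5f1 at 57.6%, against 116% for the median gene. None passed 2-fold, which 16.9% of 14695 genes did upward and 5.14% downward. For Pou5f1 the log2 ratio was -0.79, beside 0.21 for the median gene, and 8.08% of genes had a lower ratio. For Sox2, 65.1% of genes had a lower ratio, and for Nanog 26.7%. With quantile normalization these shares were 14.2% for Pou5f1, 83.4% for Sox2 and 41.4% for Nanog. Against mitosis, late G1 signal was 23.4-fold higher for Sox2, 20.5-fold for Pou5f1 and 19.4-fold for Nanog, and 99.7% of 14467 genes passed 2-fold upward, against 0.0% downward.

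**Figure D2:**
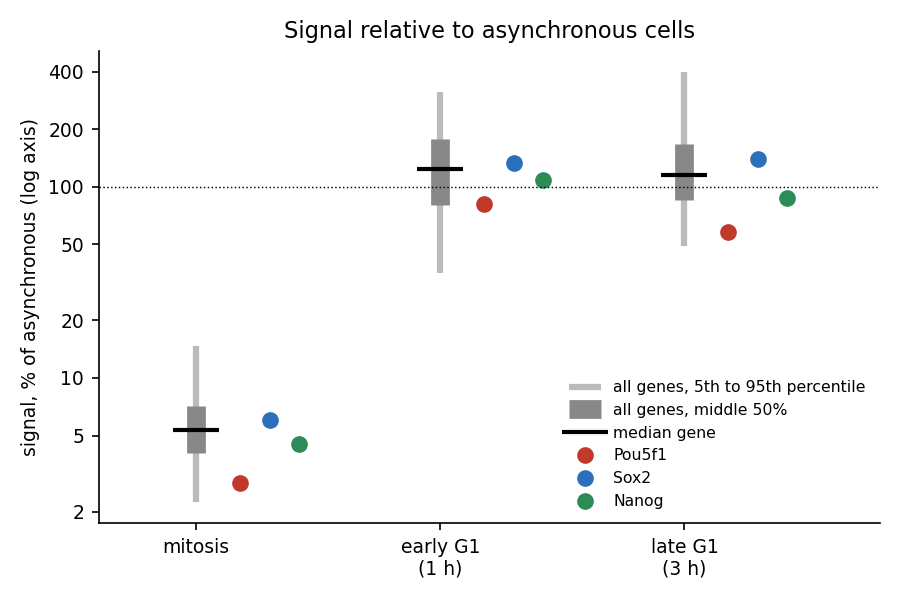
Signal as a percentage of the asynchronous value (log axis) in mitosis, early G1 and late G1 for Pou5f1, Sox2 and Nanog, beside all genes tested (thin bar, 5th to 95th percentile; thick bar, middle 50%; line, median). In each of the 3 groups Sox2 is highest (6.01%, 133% and 140%) and Pou5f1 lowest (2.81%, 81.7% and 57.6%); the groups share the asynchronous column.

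The order Sox2, Nanog, Pou5f1 was the same in mitosis, early G1 and late G1, but these percentages share 1 asynchronous column. A ratio of 1 gene to another within a column is not changed by any scaling that multiplies the column by 1 factor, so the genes were also set against each other directly. Sox2 over Pou5f1 was 3.48 in mitotic cells, 2.64 in early G1, 3.96 in late G1, with 1.63 in asynchronous cells. Nanog over Pou5f1 was 1.57 in mitotic cells, 1.31 in early G1, 1.49 in late G1, with 0.984 in asynchronous cells. Sox2 over Nanog was 2.21 in mitotic cells, 2.01 in early G1, 2.66 in late G1, with 1.65 in asynchronous cells. All 3 ratios were lowest in asynchronous cells and, among the 3 times after arrest, lowest in early G1. The low in asynchronous cells restates the order of the percentages above and rests on the same asynchronous column. The comparison among the 3 times after arrest does not use that column. Sox2 over Pou5f1 in late G1 was 2.44 times its asynchronous value, the largest such shift of the 3 pairs. The absolute ratios may carry gene length, which cancels only in the comparison between columns.

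**Figure D3:**
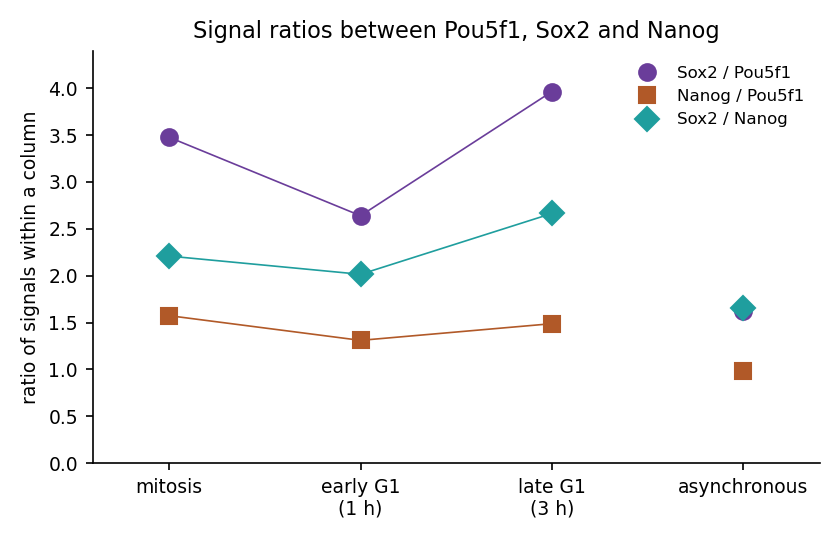
Ratio of signals between pairs of the 3 genes within each column, for mitosis, early G1, late G1 and asynchronous cells (1 value per group; lines join the times after arrest). Each pair is lowest in asynchronous cells, at 1.63 for Sox2 over Pou5f1, 1.65 for Sox2 over Nanog and 0.984 for Nanog over Pou5f1. That low restates the order of the percentages of the asynchronous value.

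The 3 genes were then placed among other transcription factors of pluripotency. Of a list of 35, 34 are in the table, and all 34 passed the minimum. In mitosis all 34 were at least 2-fold lower than in asynchronous cells, as were 99.1% of all genes. The list's median share kept was 4.81%, beside 5.36% over all genes. The log2 medians with 0.1 added, -4.28 and -3.89, lie farther apart because the added value lifts low genes most. In early G1, 4 of 34 were at least 2-fold higher than in asynchronous cells and 1 lower, beside 17.7% and 9.53% of all genes. The list's median log2 ratio to asynchronous cells was 0.33 (0.30 over all genes). In late G1 it was 0.06 (0.21), with 0 higher and 3 lower, where 16.9% and 5.14% of all genes were. Among the 37 genes formed with Pou5f1, Sox2 and Nanog, Pou5f1 had 3 genes below it in mitosis, 5 in early G1 and 4 in late G1. Sox2 had 4 genes above it in mitosis, 13 in early G1 and 4 in late G1. Nanog sat in the middle, with 17, 12 and 13 genes below it.

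Within that list, the genes with the lowest log2 ratios of signal + 0.1 in mitosis, among those whose mean reaches the median level, were Zfp57, an imprinting regulator (2.69% of asynchronous signal), Klf2, a Krüppel-like factor (2.79%), Sall4 (3.4997%) and Zfp42, which encodes REX1 (3.64%). By the share kept, without the added 0.1, Thap11 (3.44%), named after its value was seen, would stand before Sall4. In early G1 the farthest from asynchronous cells were Sp5, a target of Wnt signalling, with 38.2 in early G1 against 9.47 in asynchronous cells, and Prdm14, a repressor of differentiation genes, with 9.29 in early G1 against 24.4 in asynchronous cells. Nr5a2 stood at 238% and Tfcp2l1 at 235% of the asynchronous signal. In late G1 they were Gbx2 (5.19 in late G1 and 14.0 in asynchronous cells), Klf5 (177%), Zscan10 (175%) and Utf1 (57.4%), a chromatin-associated factor whose percentage was next to that of Pou5f1. Klf4 and Myc, used with Pou5f1 and Sox2 as reprogramming factors, kept 7.29% and 7.01% in mitosis. Klf4 stood at 131% in early G1 and 124% in late G1, and Myc at 130% and 133%. Both were above Pou5f1 in each group and near Sox2 in early G1.

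**Figure D4:**
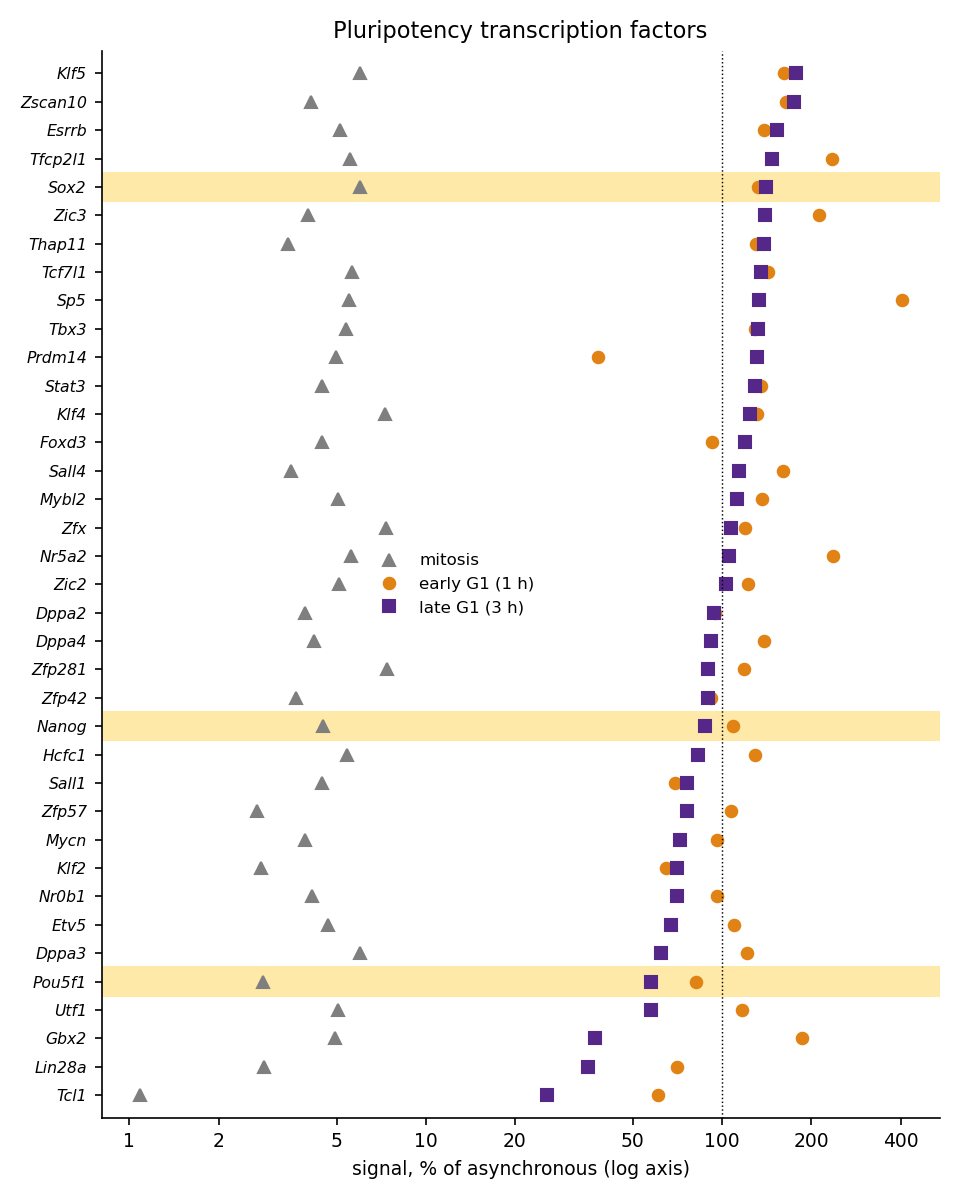
Signal as a percentage of the asynchronous value (log axis) in mitosis (triangles), early G1 (circles) and late G1 (squares) for 37 pluripotency transcription factor genes ordered by late G1, with Pou5f1, Sox2 and Nanog shaded. Late G1 values run from 25.7% for Tcl1 to 177% for Klf5, with 4 genes above Sox2 and 4 below Pou5f1.

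Genes for proteins that bind OCT4, SOX2 or NANOG formed the next list, 45 of 46 of which are in the table. All 45 were at least 2-fold lower in mitosis than in asynchronous cells, as were 99.1% of all genes, and the median share kept was 4.54% (5.36% over all genes). In early G1, 4 exceeded asynchronous signal at least 2-fold and 1 was lower, against 17.7% and 9.53% of all genes. The median log2 ratio was 0.46 (0.30 over all genes). In late G1 0 were higher and 2 lower, against 16.9% and 5.14%, with a median log2 ratio of 0.02 (0.21). The median log2 ratio of late over early G1 was -0.47, beside -0.08 over all genes. Wdr5, a subunit of histone methyltransferase complexes, kept 2.38% in mitosis and Trim28, a corepressor, 3.00%. Wdr5 was the 1 gene of this list that kept a smaller share than Pou5f1. Kpna2, an importin that carries OCT4 into the nucleus, had 40.1 in early G1 and 21.3 in late G1, against 96.7 in asynchronous cells. Chd4, the remodeller of the NuRD complex, stood at 46.8% in late G1. Ep400 stood at 267% and Gatad2a at 228% in early G1.

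Of 31 genes described as controlled by OCT4 and SOX2, some through a composite element, 29 are in the table. The lists overlap, with Sall4 and Zscan10 among the genes found in this list and in both before it. Their medians and counts are therefore not separate observations. All 29 were at least 2-fold lower in mitosis than in asynchronous cells, like 99.1% of all genes, and the median share kept was 4.48% (5.36% over all genes). In early G1, 3 were at least 2-fold higher and 1 lower, beside 17.7% and 9.53% of all genes. The median log2 ratio was 0.44 (0.30). In late G1, 0 were higher and 2 lower, beside 16.9% and 5.14%, with a median log2 ratio of -0.09 (0.21). Fgf4, whose enhancer holds a classic composite element, had 3.98 in mitotic cells, 185 in early G1, 171 in late G1, with 181 in asynchronous cells. It kept 2.20% in mitosis, less than any of the trio. Utf1, which also has such an element, had 7.75, 179, 88.2 and 153 in that order. Nodal stood at 193% in late G1 and the histone demethylase gene Kdm3a at 267% in early G1. Jarid2, a Polycomb partner, stood at 213% in early G1, and Tdgf1, a Nodal coreceptor gene, at 53.0%.

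The relatives of OCT4 and SOX2 were mostly of low signal. Of 15 other POU genes and POU cofactors, 12 are in the table, and 4 reach the mean of the median gene. Pou2f1, which encodes OCT1, had 0.589 in mitotic cells, 17.9 in early G1, 10.1 in late G1, with 9.86 in asynchronous cells. Pou3f1, the OCT6 gene of primed cells, had 1.38, 11.7, 9.07 and 19.1, and Pou6f1 had 1.05, 8.67, 13.5 and 27.7. Both were at least 2-fold lower in late G1 than in asynchronous cells. Pou4f1 stood at 203% in late G1. Over the list, in late G1 3 of the 11 tested were 2-fold or more higher and 3 lower, beside 16.9% and 5.14% of all genes.

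Of 19 other SOX genes, 15 are in the table. Sox15, whose protein can also pair with OCT4 in mouse embryonic stem cells, had 7.62 in mitotic cells, 143 in early G1, 144 in late G1, with 150 in asynchronous cells. Its G1 values were 94.96% and 95.9% of the asynchronous one, below those of Sox2 in each case. Sox12 had 1.53, 28.8, 15.2 and 47.3 and Sox18 had 0.557, 6.95, 12.6 and 26.9, both at least 2-fold lower in late G1 than in asynchronous cells. Sox10, a neural crest gene, had 0.582, 33.4, 11.5 and 6.43, and was at least 2-fold higher in early G1. Sox21 stood at 173% in early G1. Over the list, 3 of 15 were at least 2-fold higher and 1 lower in early G1, near the shares of all genes (17.7% and 9.53%). In late G1 0 of 15 were higher and 3 lower, beside 16.9% and 5.14%.

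Genes of lineages outside the pluripotent state were also read. Of 25, 21 are in the table, and against asynchronous cells 2 of 20 tested were at least 2-fold higher and 2 lower in early G1, beside 17.7% and 9.53% of all genes. In late G1 5 of 20 were higher and 1 lower, beside 16.9% and 5.14%. Of those with enough signal to name, Tfap2a stood at 168% in early G1 and 107% in late G1. In the same order Gata3 stood at 157% and 131%, and Eomes at 63.5% and 83.5%. Sox1 stood at 75.4% and 78.5%, and Nes at 118% and 76.8%. Of 13 genes of primed and formative cells, 12 are in the table. In late G1, 1 of 12 was higher and 2 lower against the same shares. The median log2 ratio was -0.45 (0.21 over all genes). Zic5 stood at 52.9% there and Foxd3 at 120%.

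Genes near the trio were taken within 100 kb of each start. Tcf19, a cell-cycle-linked gene 10.8 kb beyond the Pou5f1 start and read from the opposite strand, had 14.3 in mitotic cells, 422 in early G1, 264 in late G1, with 436 in asynchronous cells. It kept 3.28% in mitosis and stood at 96.8% and 60.5% in the G1 groups, a profile like that of Pou5f1. Its root-mean-square difference from Pou5f1 over the 3 log2 ratios to asynchronous cells was 0.18, and 41 of 7370 genes were closer. Cchcr1, which starts 11.1 kb away, close to Tcf19 but in the other direction, did not share it: it had 4.10, 90.6, 46.1 and 34.8 and kept 11.8% in mitosis. Psors1c2 stood at 493% in early G1 and Cdsn at 104%, while Sfta2 stood at 41.4%. H2-Q6 was listed at 0 in mitosis and early G1, with 0.723 in late G1 and 1.20 in asynchronous cells. 2300002M23Rik was also listed at 0 in both, and its 0.996 in late G1 was 6.77% of the 14.7 in asynchronous cells.

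At the Nanog locus, Slc2a3, the gene of the glucose transporter GLUT3 34.8 kb away, had 4.81 in mitotic cells, 93.4 in early G1, 36.1 in late G1, with 121 in asynchronous cells. It was at least 2-fold lower in late G1 than in both early G1 and asynchronous cells, which Nanog was not. Dppa3, a maternal-effect gene 80.8 kb away, had 0.751, 15.2, 7.80 and 12.5. Gdf3, a TGF-beta ligand 97.7 kb away, had 12.01, 199.7, 202 and 227, and at 87.8% and 88.9% of the asynchronous signal in the G1 groups it was close to Nanog in late G1. Sox2 has no other gene of the table within 100 kb, and the nearest on either side are Dnajc19 at 569 kb and Atp11b at 1104 kb.

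**Figure D5:**
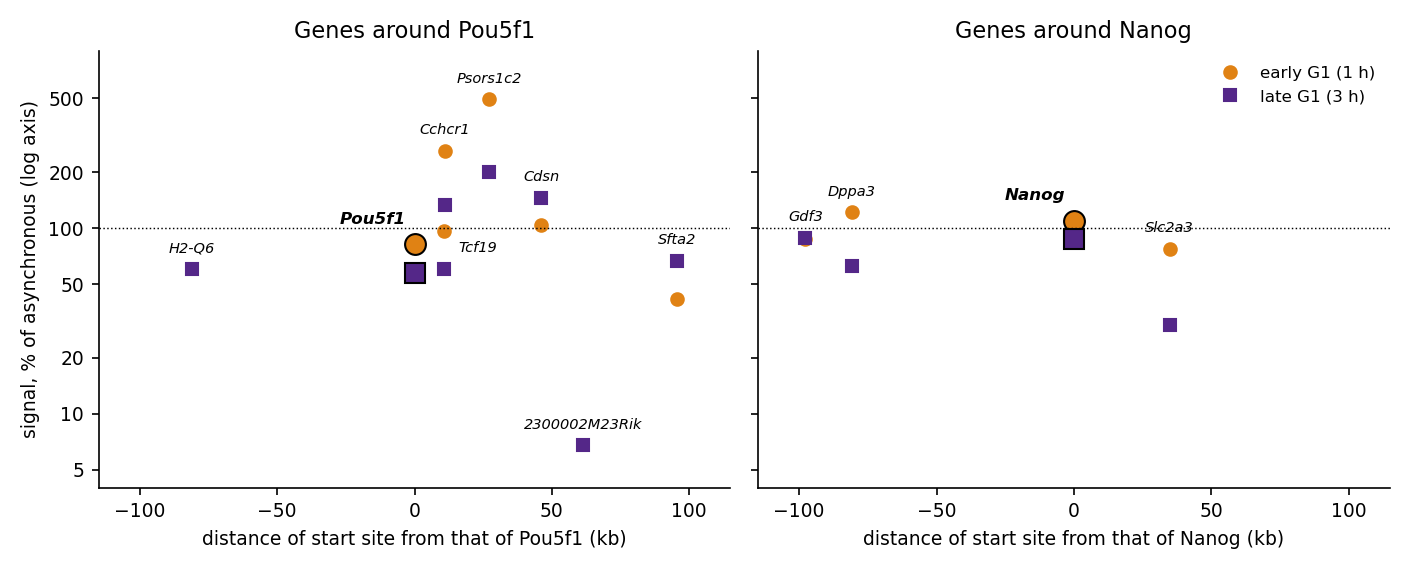
Signal in early G1 (circles) and late G1 (squares) as a percentage of the asynchronous value (log axis) for genes starting within 100 kb of Pou5f1 or Nanog, by distance in kb; the large outlined symbols are Pou5f1 and Nanog, and values at 0 are not drawn. Tcf19 (96.8% and 60.5%) lies near Pou5f1 (81.7% and 57.6%), and Slc2a3 is at 29.9% in late G1.

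The genes most like each of the trio were found by the same root-mean-square difference over the 3 log2 ratios, among 7370 others at or above the median level and with no value at 0. For Pou5f1 they were Gm19426, Ppp1r18, Chmp2a, Fbxo6 and Omp, at 0.077 to 0.092. For Sox2 they were Syn1, Fam102a, Ypel1, Rbfox2 and Kif20a, at 0.028 to 0.045, and for Nanog Wdr74, Gm29609, Dnajc7, Smg8 and Cysrt1, at 0.016 to 0.047. Another measure of likeness kept 3, 2 and 1 of the 5. The trio did not pick out each other. Nanog was 0.57 from Pou5f1, with 1221 genes closer to Pou5f1 and 3532 closer to Nanog. Nanog was 0.49 from Sox2, with 3120 genes closer to Sox2 and 2848 closer to Nanog. Sox2 was 1.04 from Pou5f1, with 4081 genes closer to Pou5f1 and 6291 closer to Sox2.

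The deposited table also gives each gene 1 of 4 temporal classes, assigned by the authors by steps not known here. Pou5f1, Sox2 and Nanog are all in the class Early_Plateau, which holds 26.3% of the table. So are 21 of the 34 other pluripotency factors, 19 of the 45 binding partners, 11 of the 29 target genes, 1 of the 12 POU and 2 of the 15 SOX genes. Some genes are in more than 1 of these lists. Median values in the class were 4.67% of asynchronous signal in mitosis, 108% in early G1 and 93.4% in late G1. Nanog was near these medians. In late G1 Sox2 was above 96.4% of the class and Pou5f1 above 6.42% of it, so the shared class holds 2 of the trio near its opposite ends.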

How the data were processed

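Per the file headers, the authors deposited a normalized signal for each gene, 1 column per group. The build was GRCm38 (mm10) and the tools named are SAMtools, Picard, Bowtie2 and cutadapt, per the submitters' processing notes. How libraries were combined, reads assigned and columns scaled was not given in the sources used here. Column totals were 16863 (mitosis), 361203 (early G1), 326086 (late G1) and 309144 (asynchronous).

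From these values log2 ratios of signal + 0.1 were taken over genes with a mean signal of at least 0.5 (47 genes removed), leaving genes at 0 out of ratios with that column. The pseudocount understates folds of low genes. Called means at least 2-fold. Percentages and the ranks built on them carry no pseudocount. No test was possible with 1 column per group. The calculation was tested on a copy of the data with known changes put in without noise, which checks the arithmetic only. Promoters are from RefSeq (GRCm38.p6), and all 3 genes matched by symbol. Named genes follow a fixed rule: the trio, neighbours within 100 kb, the 5 most similar genes, POU and SOX genes, and, from each list, at most 4 genes farthest from no change whose mean reaches the median level. Also named, outside this rule, were Twist1, S100a4, Col1a1, Tcl1, Thap11, Dnajc19, Atp11b and the genes with the shorter composite letters. The trio and the 9 lists were chosen with earlier results of these data known. Python 3.11.15, pandas 2.3.3 and NumPy 2.4.6 were used.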

Additional observations from a re-analysis of the deposited data

How the results depend on the processing

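No paired analysis was possible because the table gives 1 combined column per group, so neither a replicate block nor leaving out a replicate was run; depth is unknown. The 18 log2 ratios of Pou5f1, Sox2 and Nanog kept their direction and their side of 2-fold with pseudocounts of 0.02 and 0.5. Rescaling the columns removes the general fall in mitosis by its construction, and then no ratio to mitosis reached 2-fold. For Pou5f1, Sox2 and Nanog in that order, mitosis over asynchronous cells became -0.88, 0.21 and -0.20 with equal medians, -0.95, 0.14 and -0.28 with equal totals, and -0.89, 0.26 and -0.26 with quantile normalization. Early G1 over mitosis became 0.26, -0.13 and 5.5e-05, then 0.44, 0.04152 and 0.17, then 0.44, 0.22 and 0.25. Late G1 over mitosis became -0.12, 0.07201 and -0.20, then 0.08264, 0.27 and 0.0022, then 0.09227, 0.46 and 0.07398. Nanog in early G1 over asynchronous cells turned to -0.20, -0.10 and -0.0045. All other ratios kept their direction and stayed within 2-fold.

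Numbers of genes at least 2-fold higher and lower also moved with the scaling. With equal medians, equal totals and quantile normalization, mitosis over asynchronous cells gave 1374, 1228 and 1237 higher and 1003, 1158 and 972 lower (3 and 14321 as deposited). Early G1 over mitosis gave 702, 1122 and 800 higher and 1970, 1489 and 1283 lower (14360 and 1). Late G1 over mitosis gave 1472, 2004 and 1230 higher and 1251, 853 and 1472 lower (14423 and 0). Early G1 over asynchronous cells gave 1265, 1562 and 1364 higher (2596) and, with equal medians, 2171 lower (1397). Late G1 over asynchronous cells gave 1152 and 1472 lower with equal medians and quantile normalization (755) and 1625 higher with the last (2483), and late over early G1 gave 688 lower with equal totals (1106). With a minimum mean of 2.5, 925 genes were lower in early G1 and 1637 higher in late G1 than in asynchronous cells, and 1255 higher in late than in early G1 (2226). The few genes against the general direction numbered 5, 3 and 1 with a pseudocount of 0.02 (mitosis over asynchronous cells, early and late G1 over mitosis), 31, 27 and 20 with genes at 0 kept, and 0 in early G1 over mitosis with 0.5. All other counts stayed within 1.5 times. The 5 most similar genes were replaced in part by the largest difference after equal medians, which kept 3 for Pou5f1, 2 for Sox2 and 1 for Nanog.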

Other observations

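The shorter composite letters (TTTGCAT, 1 base of any kind, then ACAA) lay within 250 bases before the start of 9 genes, 5 of them in the table: Exoc1, Idua, Nanog, Nrarp and Pipox. Nrarp, a feedback inhibitor of Notch signalling, had a signal of 0.696 in mitotic cells, 26.7 in early G1, 29.9 in late G1, with 28.9 in asynchronous cells. Exoc1 had 0.236, 9.90, 7.10 and 6.24, Idua, a lysosomal enzyme gene, 0.688, 4.57, 11.4 and 11.4, and Pipox 0.770, 15.1, 15.8 and 27.6 in that order. All 5 were at least 2-fold lower in mitosis than in asynchronous cells, as were 99.1% of all genes, and in early G1 only Idua was 2-fold apart from asynchronous cells. In late G1 none of the 5 was, with log2 ratios from -0.80 for Pipox to 0.18 for Exoc1.

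Among feeder markers, 6 of 12 tested were at least 2-fold higher in late than in early G1 and none lower. The shares over all genes were 15.1% and 7.52%. The markers' median log2 ratio was 0.84, beside -0.08 over all genes. Most of the 6 are genes of low signal. Of the 3 markers whose mean reaches that of the median gene, only Loxl1 was among them. Loxl1, an enzyme of the extracellular matrix, had 11.6 in early G1 and 30.6 in late G1, against 12.8 in asynchronous cells, and the fibronectin gene Fn1 had 106, 61.3 and 53.4. Tagln had 47.2, 30.2 and 23.5 in the same order. The summed signal of the 13 markers in the table was 185 in early G1 and 165 in late G1. Over the same interval Sox2 had a log2 ratio of 0.08 and Pou5f1 of -0.50, and the part of feeder cells in this was not tested.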
